A study of Mus musculus with 9 samples.

Results

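The genes described here make up the folding, quality control and stress signalling apparatus of the endoplasmic reticulum (ER). They are 33 genes, listed by name from the 35288 genes of the count table by their role rather than by a threshold on a measured value, and all 33 were among the 13697 genes that passed the filter on low counts and were tested. They were read in RNA-seq libraries of T15, a cell line from a mouse peripheral T-cell lymphoma that lacks Smarcb1, a core subunit of the SWI/SNF (BAF) chromatin remodelling complex. The 9 libraries fall into 3 groups of 3 biological replicates, named control, SAHA and Smarcb1-RE, and all of them share the T15 background. SAHA (vorinostat, an inhibitor of histone deacetylases) was given repeatedly at 1 µM within 72 h. Smarcb1-RE cells carried a lentiviral, doxycycline-inducible Smarcb1 cDNA, were selected with G418 and received doxycycline at 0.5 µg/µl for 72 h. The study describes its control cells as untreated. It reports strong apoptosis with most T15 cells dead under SAHA at 1 µM, and slower growth with unaffected viability after Smarcb1 re-expression. The part of cell death in the SAHA values was not tested. The labels name a vehicle for SAHA and a control plasmid for re-expression but do not say which of them the 3 control libraries received, so transduction, selection and doxycycline cannot be told apart from Smarcb1 itself, and whether the Smarcb1-RE libraries are separate clones is not stated.

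Secreted and membrane proteins enter the ER through the Sec61 channel and are folded there by the Hsp70 chaperone BiP (Hspa5) with its J protein partners, the Hsp90 chaperone Grp94 (Hsp90b1), the lectins calreticulin and calnexin, and the protein disulfide isomerases. Proteins that stay misfolded are sent back to the cytosol and degraded (ER-associated degradation, ERAD). An excess of unfolded protein is sensed by the membrane proteins encoded by Ern1 (IRE1), Atf6 and Eif2ak3 (PERK). Through Xbp1 splicing, cleaved Atf6 and Atf4 they raise chaperone and ERAD genes, and PERK lowers protein synthesis by phosphorylating eIF2α. This is the unfolded protein response (UPR), best known in secretory cells such as plasma cells.

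Many UPR genes carry the ER stress response element (ERSE) near their start, the letters CCAAT, then any 9 bases, then CCACG, which Atf6 is known to bind together with NF-Y. ERSE-II is ATTGG, any 1 base, CCACG. RefSeq promoter windows of GRCm38.p6, of 300 bases from 250 before the gene start to 50 after it, were matched by symbol to 27 of the 33 genes (29 windows). On either strand, ERSE was found in 9 of the 29 windows (31%) against 39 of 32817 windows of all genes (0.119%), and ERSE-II in 2 (6.9%) against 12 (0.0366%). The UPRE core TGACGTGG was in none of the 29 windows and in 222 of all windows (0.676%), and the CRE letters TGACGTCA were in 1, that of Ppp1r15a (3.45%), against 588 (1.79%). The block CCACG is shared by ERSE and ERSE-II, and its reverse complement CGTGG also ends the UPRE core. The ATTGG of ERSE-II is the reverse complement of the CCAAT of ERSE. The elements upstream of the start are printed for genes that later differ in direction. The element is ERSE in each of them but Herpud1, which had ERSE-II. Capitals mark the outer blocks of 5 letters, which read CGTGG and ATTGG where the element lies on the other strand.
Hspa5 (chr2:34772015-34772053, + strand): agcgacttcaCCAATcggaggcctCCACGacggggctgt
Hsp90b1 (chr10:86705523-86705666, - strand, holding 2 elements): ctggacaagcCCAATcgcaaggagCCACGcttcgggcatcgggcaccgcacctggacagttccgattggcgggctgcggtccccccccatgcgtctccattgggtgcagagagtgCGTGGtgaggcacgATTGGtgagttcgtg
Calr (chr8:84847065-84847103, - strand): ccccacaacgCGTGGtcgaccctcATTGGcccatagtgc
Canx (chr11:50325790-50325828, - strand): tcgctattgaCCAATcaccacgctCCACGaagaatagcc
Pdia6 (chr12:17266481-17266519, + strand): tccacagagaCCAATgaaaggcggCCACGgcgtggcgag
Creld2 (chr15:88819510-88819548, + strand): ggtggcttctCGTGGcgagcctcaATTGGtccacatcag
Dnajc3 (chr14:118937817-118937855, + strand): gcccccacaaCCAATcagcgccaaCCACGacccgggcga
Syvn1 (chr19:6046522-6046560, + strand): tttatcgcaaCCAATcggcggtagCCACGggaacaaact
Derl3 (chr10:75893232-75893270, + strand): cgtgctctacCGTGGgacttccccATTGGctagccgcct
Herpud1 (chr8:94386367-94386397, + strand, ERSE-II): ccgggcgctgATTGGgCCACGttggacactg
The remaining ERSE-II match, in Dnajb11, lay after the gene start. A match is a description of letters in a window and says nothing about occupancy.

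Library totals were 24564919 to 24941494 estimated counts in the control group, 23403494 to 24189992 in SAHA and 20900477 to 21911177 in Smarcb1-RE, so that 3 counts correspond to 0.12 to 0.144 CPM (counts scaled to the size of the library). Smarcb1 itself had 2, 5 and 8 counts in the control libraries, 7, 13 and 3 counts in SAHA and 151, 147 and 142 counts in Smarcb1-RE. The biological coefficient of variation over all genes was 5.24%. Control replicate 1 stood apart from control replicates 2 and 3, with a mean chi-square per gene of 13.4 and 15.1 against them and 3.65 between them. Of the 33 genes it had the highest control level for 16 and the lowest for 13. That count was not particular to it, as SAHA replicate 1 had the highest SAHA level for 17 and the lowest for 12. T-cell markers summed to 2540-2620, 2830-2880 and 3510-3580 CPM in control, SAHA and Smarcb1-RE, with 6 of 9 markers tested and Cd2, Cd5 and Thy1 at or near 0. The sum followed Ptprc, at a mean of 641, 1010 and 1640 CPM. In Smarcb1-RE against control, Lck was also higher (log2 fold change 0.69) and Cd3d was not called. Cd3e, Cd3g and Cd247 were lower there (-0.28, -0.35 and -0.28). B and plasma cell markers (5 of 10 tested, mostly Irf4 and Prdm1) summed to 442-515, 939-955 and 353-365 CPM, fibroblast and epithelial markers to 7.7-9.91, 9.14-10.3 and 66.4-68.6 CPM, and macrophage markers, none of them tested, to at most 0.85 CPM. Of the tested B and plasma cell markers, Irf4, Prdm1 and Sdc1 were lower in Smarcb1-RE than in control. Pax5 (0.0982 to 3.89 CPM) and Ms4a1 (0.825 to 3.51 CPM) were higher there. The fibroblast and epithelial sum in Smarcb1-RE was nearly all Pdgfra (mean 67.1 CPM, 7.57 CPM in control), while Epcam fell from 0.98 to 0.0714 CPM. Mitochondrial transcripts took 3.02-3.53%, 3.37-3.76% and 4.79-5.08% of the counts. The part of these values in the results below was not tested. In bulk libraries, fewer cells of a kind and less RNA per cell cannot be told apart.

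The listed folding genes and disulfide isomerases fell on Smarcb1 re-expression, while under SAHA the most abundant of them, Hspa5, Hsp90b1, Calr and Pdia3, stayed within 0.949 to 1.09 times control and Creld2 and Sdf2l1 fell to 0.553 and 0.658 times control. All levels are CPM after TMM scaling (a scaling between libraries that assumes most genes stay level), and adjusted p-values are from edgeR's quasi-likelihood test with Benjamini-Hochberg adjustment over the 13697 genes. Summed over the 33 genes, the level was 7060, 6850 and 6860 CPM in the control libraries, 6940, 6740 and 6850 CPM in SAHA and 4280, 4300 and 4300 CPM in Smarcb1-RE. The SAHA libraries overlapped the control libraries and the Smarcb1-RE libraries all lay below both, in a sum to which the most abundant genes contribute most.

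Against control, 6 of the 33 genes were higher in Smarcb1-RE and 23 lower at an adjusted p under 0.05, with 4 not called, beside 39.2% higher and 38.6% lower among all genes tested. The median log2 fold change of the 33 was -0.55 against 0.01 over all genes. Most of the 33 are well expressed, but not Derl3 and Serp2 (means of 1.8 and 3.34 CPM in control). Among the 7636 genes with an average of at least 20 CPM the shares were 29.1% higher and 54.5% lower, with a median of -0.19. Scaled by library totals alone, which moved the median of all genes to 0.17, the 33 split into 9 higher and 19 lower (32.1% of the calls higher, against 20.7% with TMM) and all genes into 6476 higher and 4141 lower (61% higher, against 50.4%).

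SAHA gave 9 higher, 16 lower and 8 not called of the 33, beside 32.6% higher and 34.3% lower among all genes, with medians of -0.10 and 0.00. Among genes of at least 20 CPM the shares were 29.3% and 46.2%. Set directly against SAHA, Smarcb1-RE had 8 of the 33 higher and 22 lower, with 3 not called, beside 37.7% and 36.8% of all genes (50.6% of those calls higher, or 62.1% when scaled by library totals alone). The medians were -0.30 for the 33 and 0.02 for all genes. Among genes of at least 20 CPM the shares were 33.7% higher and 47.9% lower, with a median of -0.10, and by library totals alone the 33 split into 8 higher and 18 lower. Both treatments were compared with the same control libraries, so their values are given side by side below and the direct comparison is the test of a difference between them.

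**Figure D1:**
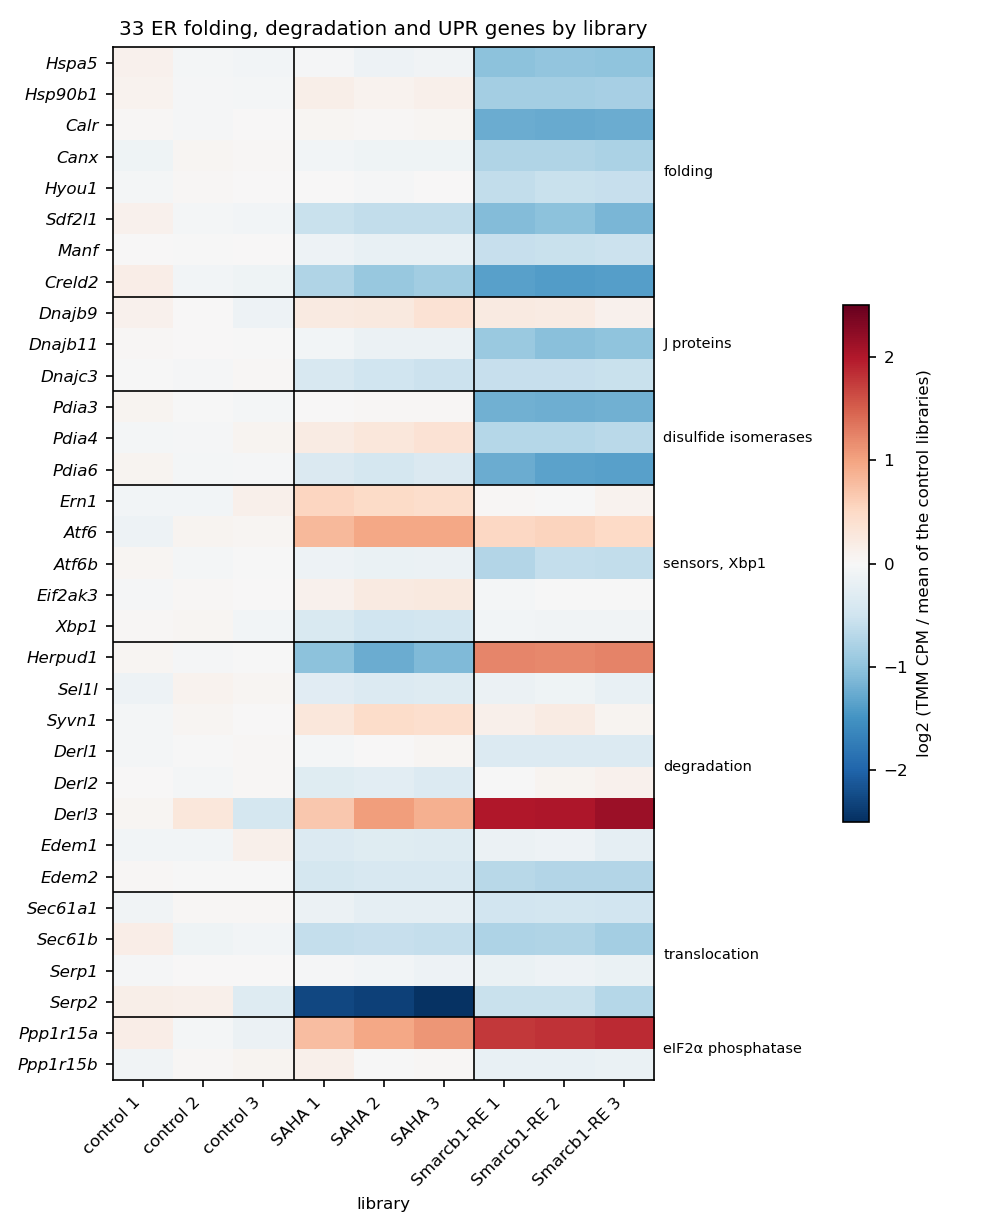
Colour gives the log2 ratio of each gene's CPM in each of the 9 libraries (columns) to the mean of the control libraries, for the 33 genes (rows) grouped by role. The Smarcb1-RE columns are blue through the folding genes and disulfide isomerases and red for Herpud1, Derl3 and Ppp1r15a, while Herpud1 and Serp2 are bluest in the SAHA columns.

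Among the folding genes, all 8 were lower in Smarcb1-RE than in control and all 8 were lower than in SAHA. Each of these calls held under the 16 alternatives tried for a gene, which did not include a stricter threshold or a minimum fold change. In SAHA 1 of the 8 was higher, 3 were lower and 4 were not called. The median log2 fold change of the group was -0.93 in Smarcb1-RE and -0.09 in SAHA, against control. Hspa5 (BiP, the main ER Hsp70) stood at 1050, 949 and 936 CPM in the control libraries, 961, 899 and 925 CPM in SAHA and 482, 491 and 490 CPM in Smarcb1-RE. The control and SAHA libraries overlapped and all Smarcb1-RE libraries were lower, at 0.498 times control (SE 0.05 on the log2 scale, edgeR adjusted p = 1.19e-09), against 0.949 times control in SAHA (SE 0.05, edgeR adjusted p = 0.179).

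Hsp90b1 (Grp94) is the ER member of the Hsp90 family and had the highest level per kilobase of merged exon among the 33 genes, 355 CPM per kb in control. Its levels were 1510, 1400 and 1390 CPM in control, 1590, 1530 and 1560 CPM in SAHA and 795, 791 and 802 CPM in Smarcb1-RE. It fell in Smarcb1-RE (log2 fold change -0.85, edgeR adjusted p = 1.34e-09), and in SAHA it rose by 0.13 ± 0.04 (SE) on the log2 scale (edgeR adjusted p = 0.015), a call lost without control replicate 2 (0.11, edgeR adjusted p = 0.0511) and with no filter on low counts.

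Calreticulin and calnexin hold newly made glycoproteins through their sugars, and both fell in Smarcb1-RE. Calr was at 815, 786 and 801 CPM in control, 832, 819 and 832 CPM in SAHA and 340, 333 and 339 CPM in Smarcb1-RE, a log2 fold change of -1.25 ± 0.04 (SE) for Smarcb1-RE (edgeR adjusted p = 1.68e-11) and 0.05 for SAHA, not called. Canx, the membrane-bound relative, was at 463, 517 and 510 CPM in control, 473, 459 and 459 CPM in SAHA and 295, 296 and 289 CPM in Smarcb1-RE. Its log2 fold changes were -0.76 in Smarcb1-RE and -0.10 in SAHA, where it was not called (edgeR adjusted p = 0.0662), although without control replicate 1 the SAHA value was -0.15 (edgeR adjusted p = 6.02e-04).

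Hyou1 (Grp170) exchanges the nucleotide on BiP. It was at 222, 235 and 230 CPM in control, 230, 224 and 230 CPM in SAHA and 150, 155 and 153 CPM in Smarcb1-RE, with a log2 fold change of -0.59 in Smarcb1-RE and -0.01 in SAHA. The 3 smaller folding factors differed from these in that they were lower under both treatments. Sdf2l1, a cofactor of ER J proteins, was at 56.8, 51.1 and 50.1 CPM in control, 35.6, 34.2 and 34.2 CPM in SAHA and 25, 26 and 24 CPM in Smarcb1-RE, so the 3 groups did not overlap.

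Creld2, a small ER-resident protein induced by ER stress, had the lowest log2 fold change of the 33 genes in Smarcb1-RE, -1.38 ± 0.07 (SE, edgeR adjusted p = 2.8e-09), beside -0.86 in SAHA. Its levels were 94.9, 80.8 and 78.6 CPM in control, 50.4, 43.8 and 46.3 CPM in SAHA and 32.9, 32.4 and 32.6 CPM in Smarcb1-RE, with control replicate 1 the highest library. Manf, a secreted ER stress protein that binds BiP, was called lower under both treatments, at 119 ± 0.888 CPM (SD, n = 3) in control, 105 ± 2.67 in SAHA and 80.9 ± 1.14 in Smarcb1-RE, and its locus overlaps Rbm15b on the same strand and Dcaf1 on the other.

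The J proteins, which deliver substrates to BiP and start its ATPase cycle, did not move as 1 group. Dnajb11 (ERdj3) was at 143, 141 and 140 CPM in control, 134, 127 and 127 CPM in SAHA and 74.3, 68.7 and 69.8 CPM in Smarcb1-RE. It fell in Smarcb1-RE by 0.99 on the log2 scale (edgeR adjusted p = 4.78e-10), and its small SAHA change of -0.13 lost its call in 3 of 16 alternatives, among them leaving out SAHA replicate 2 or 3 (-0.12, edgeR adjusted p = 0.0581 for each). Dnajc3 (p58IPK), whose product also restrains PERK, was similar under both treatments, at 65.3 ± 1.2 CPM (SD, n = 3) in control, 46.8 ± 2.63 in SAHA and 43.9 ± 0.343 in Smarcb1-RE. The direct difference between the treatments was -0.09 on the log2 scale (edgeR adjusted p = 0.0931). Dnajb9 (ERdj4), a J protein that keeps IRE1 with BiP, was higher in SAHA, 24.8 ± 1.22 against 20.5 ± 1.55 CPM (SD, n = 3). Its level in Smarcb1-RE was 23.2 ± 0.879 CPM, a log2 fold change of 0.18 whose call (edgeR adjusted p = 0.0237) was lost in 6 of 16 alternatives, among them leaving out control replicate 2 or 3 (0.17 and 0.12) or Smarcb1-RE replicate 1 or 2 (0.15 and 0.17).

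All 3 disulfide isomerases, which form and rearrange disulfide bonds in the ER, fell in Smarcb1-RE, and all 3 were lower there than in SAHA under every alternative. Pdia3 (ERp57), the partner of calreticulin and calnexin, was at 562, 529 and 518 CPM in control, 540, 544 and 545 CPM in SAHA and 234, 231 and 232 CPM in Smarcb1-RE. The SAHA libraries lay within the control range (log2 fold change 0.02, edgeR adjusted p = 0.701) and Smarcb1-RE fell to 0.433 times control (edgeR adjusted p = 5.73e-11).

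Pdia6, which also acts on the IRE1 sensor, fell under both treatments. It was at 222, 206 and 208 CPM in control, 164, 156 and 164 CPM in SAHA and 90.3, 84.1 and 82.7 CPM in Smarcb1-RE, with log2 fold changes of -0.39 in SAHA and -1.31 in Smarcb1-RE. Pdia4 (ERp72) moved in opposite directions, at 135, 138 and 146 CPM in control, 161, 170 and 181 CPM in SAHA and 85.5, 84.9 and 87.4 CPM in Smarcb1-RE. No library of one group overlapped another, and the direct difference of Smarcb1-RE from SAHA was -0.99 ± 0.05 (SE, edgeR adjusted p = 1.78e-09).

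**Figure D2:**
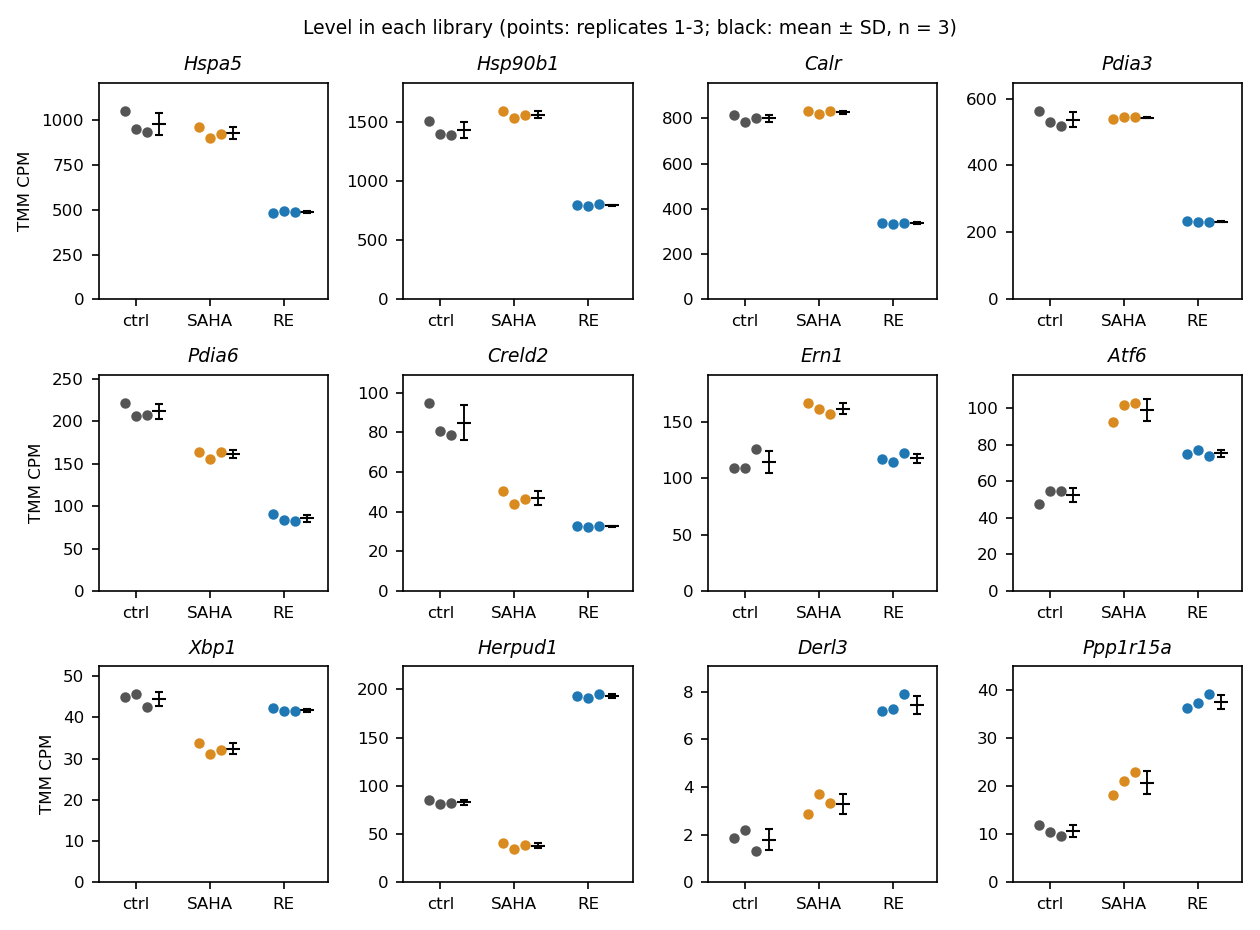
Level of 12 genes in each library, in TMM CPM from 0 on each panel's own scale (ctrl, control; RE, Smarcb1-RE), with points for replicates 1 to 3 and the mean ± SD (n = 3) in black. Hspa5, Hsp90b1, Calr and Pdia3 lie lower in RE than in both other groups, Herpud1 lies below control in SAHA and above it in RE, and Derl3 and Ppp1r15a rise in both.

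Of the sensor genes and Xbp1, 5 in all, 1 was higher and 1 lower in Smarcb1-RE with 3 not called, and 3 were higher and 2 lower in SAHA. The shares among genes of at least 20 CPM were 29.1% higher and 54.5% lower in Smarcb1-RE, and 29.3% and 46.2% in SAHA. Ern1, encoding the kinase and endoribonuclease that splices Xbp1 mRNA, was at 109, 109 and 126 CPM in control, 167, 161 and 157 CPM in SAHA and 117, 114 and 122 CPM in Smarcb1-RE. SAHA raised it by 0.49 ± 0.06 (SE) on the log2 scale (edgeR adjusted p = 6.55e-06), whereas the Smarcb1-RE libraries lay inside the control range (0.03, edgeR adjusted p = 0.612; 0.19 and called, edgeR adjusted p = 0.0122, when scaled by library totals alone). Atf6, the membrane-bound precursor of the transcription factor that reads ERSE, was higher under both treatments.

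Its levels were 47.8, 54.9 and 54.5 CPM in control, 92.3, 102 and 103 CPM in SAHA and 74.8, 77.4 and 73.9 CPM in Smarcb1-RE, so the groups did not overlap. The log2 fold changes of Atf6 were 0.92 in SAHA (edgeR adjusted p = 4.8e-08) and 0.52 in Smarcb1-RE (edgeR adjusted p = 4.21e-06). Its paralog Atf6b went the other way, at 87.5, 82.2 and 84.6 CPM in control, 77.3, 75.9 and 77.1 CPM in SAHA and 50.9, 55.9 and 55.5 CPM in Smarcb1-RE. Atf6b was called lower in both, with log2 fold changes of -0.14 and -0.65.

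Eif2ak3 (PERK), the kinase that phosphorylates eIF2α, was at 90.5, 93.5 and 92 CPM in control, 98.8, 108 and 109 CPM in SAHA and 88.4, 91.4 and 90.9 CPM in Smarcb1-RE. It rose in SAHA by 0.19 on the log2 scale (edgeR adjusted p = 0.00192) and was not called in Smarcb1-RE (-0.03; 0.13, edgeR adjusted p = 0.0192, by library totals alone). Xbp1, whose mRNA encodes the transcription factor of the IRE1 branch, was at 45, 45.6 and 42.4 CPM in control, 33.8, 31.2 and 32.2 CPM in SAHA and 42.2, 41.5 and 41.5 CPM in Smarcb1-RE. It fell in SAHA by 0.45 (edgeR adjusted p = 3.11e-06) and was not called in Smarcb1-RE against control (-0.09, edgeR adjusted p = 0.103), where it turned to 0.07 by library totals alone and reached -0.13 (edgeR adjusted p = 0.0297) without control replicate 3 and -0.10 (edgeR adjusted p = 0.0448) without SAHA replicate 1. Counts per gene add the spliced and unspliced forms of Xbp1, so its activation was not read.

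Under SAHA 2 of the 8 degradation genes were higher and 5 lower, and under Smarcb1-RE 3 were higher and 4 lower. Among genes of at least 20 CPM, 29.3% were higher and 46.2% lower in SAHA, and 29.1% and 54.5% in Smarcb1-RE. Herpud1, a membrane protein that assembles the ERAD complex around the ubiquitin ligase Hrd1, moved furthest in opposite directions of the 33 genes. It was at 85.9, 80.8 and 82.1 CPM in control, 40.9, 35 and 38.6 CPM in SAHA and 193, 191 and 195 CPM in Smarcb1-RE, with no overlap between any groups. Its log2 fold changes were -1.12 ± 0.05 (SE, edgeR adjusted p = 5.73e-09) in SAHA and 1.22 ± 0.05 (SE, edgeR adjusted p = 2.87e-10) in Smarcb1-RE, and the direct difference was 5.06-fold (edgeR adjusted p = 2.68e-12).

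Derl3, a derlin of the retrotranslocation machinery known from secretory cells, had the lowest level per kilobase in control of the 33 genes (0.901 CPM per kb). It rested on 44, 52 and 32 counts in control, 66, 84 and 77 counts in SAHA and 168, 164 and 183 counts in Smarcb1-RE, or 1.87, 2.2 and 1.32 CPM, 2.86, 3.71 and 3.32 CPM, and 7.17, 7.26 and 7.89 CPM. It rose 1.84-fold in SAHA (edgeR adjusted p = 0.00104) and 4.14-fold in Smarcb1-RE (edgeR adjusted p = 2.3e-07). Derl3 lies on chromosome 10 at 75893413-75895941, close to Smarcb1 itself at 75896769-75921617. The part of that position in its rise was not tested. The other derlins did not follow Derl3. Derl1 was at 131 ± 3.4 CPM (SD, n = 3) in control, 131 ± 4.21 in SAHA and 104 ± 0.637 in Smarcb1-RE, and was called lower in Smarcb1-RE (-0.33, edgeR adjusted p = 5.09e-06).

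Derl2, which overlaps Mis12 on the other strand, was at 59.2 ± 1.78 CPM (SD, n = 3) in control, 48.1 ± 1.27 in SAHA and 61.6 ± 2.6 in Smarcb1-RE. It fell in SAHA (-0.30) and was not called in Smarcb1-RE (0.06; by library totals alone 0.22, edgeR adjusted p = 0.00108; with at least 10 counts required in every library 0.11, edgeR adjusted p = 0.0379). Syvn1 is the gene of Hrd1 itself and overlaps Mrpl49. It was at 47.5 ± 1.46 CPM (SD, n = 3) in control, 62.3 ± 4.02 in SAHA and 52.1 ± 2.53 in Smarcb1-RE. The SAHA rise of 0.39 was called in all 16 alternatives. The Smarcb1-RE value of 0.13 (edgeR adjusted p = 0.048) lost its call in 11 of the 16. Among these were the fits without any 1 of the control libraries, without SAHA replicate 2 or 3, and without Smarcb1-RE replicate 1 or 2. The lowest value was 0.09 (edgeR adjusted p = 0.206), without Smarcb1-RE replicate 2.

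Sel1l, the scaffold partner of Hrd1, fell in SAHA from 100 ± 7.95 to 80.1 ± 1.6 CPM (SD, n = 3), and the Smarcb1-RE level of 90.7 ± 2.52 CPM overlapped the control libraries. Its Smarcb1-RE call (-0.15, edgeR adjusted p = 0.0247) was kept in 10 of 16 alternatives and lost in the others, among them without control replicate 2 (-0.12) or 3 (-0.14) and without Smarcb1-RE replicate 1 (-0.15) or 3 (-0.13), and the value turned to 0.01 by library totals alone. Of the Edem mannosidase-like proteins, which mark misfolded glycoproteins for removal, Edem1 and Edem2 were lower under both treatments. Edem3, among the other pathway genes counted below and named after its values were seen, was higher under both treatments. Its log2 fold changes were 0.39 in SAHA (edgeR adjusted p = 1.73e-04) and 0.30 in Smarcb1-RE (edgeR adjusted p = 0.0011). Edem2 was at 60.2, 58.2 and 58.1 CPM in control, 43.1, 44.6 and 44.4 CPM in SAHA and 36.2, 35.4 and 35.5 CPM in Smarcb1-RE. Edem1 was at 54.5 ± 4.09 CPM (SD, n = 3) in control, 43.6 ± 0.646 in SAHA and 48.4 ± 1.54 in Smarcb1-RE, where its call (-0.17, edgeR adjusted p = 0.0119) was lost in 3 of 16 alternatives, one of them without Smarcb1-RE replicate 3 (-0.15, edgeR adjusted p = 0.0557).

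All 4 translocation genes were called lower in Smarcb1-RE, and 3 of them in SAHA, beside 54.5% and 46.2% of genes of at least 20 CPM. Sec61b, the beta subunit of the channel, was at 99.6, 81.5 and 83.9 CPM in control, 58.3, 59.2 and 58.4 CPM in SAHA and 51.8, 52.6 and 48.8 CPM in Smarcb1-RE. It fell by 0.59 in SAHA and by 0.79 in Smarcb1-RE on the log2 scale, with control replicate 1 the highest library. It lies on chromosome 4, where the median log2 fold change of the 778 genes tested was 0.37 in Smarcb1-RE, against -0.02 for 11266 genes on the other autosomes. Sec61a1, which forms the pore, was also lower under both, at 231 ± 10.8 CPM (SD, n = 3) in control, 202 ± 7.67 in SAHA and 166 ± 1.7 in Smarcb1-RE.

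Serp1 (RAMP4), a stabiliser of new membrane proteins at the channel, overlaps Eif2a on the other strand and moved least of the 4. It was at 114 ± 1.59 CPM (SD, n = 3) in control, 108 ± 3.52 in SAHA and 102 ± 1.75 in Smarcb1-RE, and the Smarcb1-RE change of -0.16 (edgeR adjusted p = 0.00209) was lost by library totals alone, as was the call of Ppp1r15b described below. In SAHA its value of -0.08 was not called (edgeR adjusted p = 0.0877), but was called without control replicate 1 (-0.09, edgeR adjusted p = 0.0383) or SAHA replicate 1 (-0.11, edgeR adjusted p = 0.04). Its relative Serp2 rested on few reads, 87, 86 and 65 counts in control, 16, 15 and 14 counts in SAHA and 53, 51 and 47 counts in Smarcb1-RE. In CPM these were 3.7, 3.64 and 2.67, then 0.693, 0.663 and 0.603, then 2.26, 2.26 and 2.03. SAHA had the lowest log2 fold change of any of the 33 genes there, -2.34 ± 0.21 (SE, edgeR adjusted p = 8.54e-07), and Smarcb1-RE -0.61 ± 0.18 (SE, edgeR adjusted p = 0.00831).

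The regulatory subunits that direct protein phosphatase 1 to eIF2α, and so end the block of protein synthesis, differed. Ppp1r15a (Gadd34), the inducible subunit, was at 12, 10.4 and 9.62 CPM in control, 18.2, 21 and 22.9 CPM in SAHA and 36.3, 37.2 and 39.1 CPM in Smarcb1-RE, and no groups overlapped. It rose 1.94-fold in SAHA (edgeR adjusted p = 1.98e-06) and 3.51-fold in Smarcb1-RE (edgeR adjusted p = 1.75e-09), and the direct difference was 1.81-fold (edgeR adjusted p = 1e-06). Ppp1r15b (CReP), the constitutive subunit, was at 246 ± 14 CPM (SD, n = 3) in control, 255 ± 13.7 in SAHA and 217 ± 1.94 in Smarcb1-RE, with log2 fold changes of 0.05, not called, and -0.18 (edgeR adjusted p = 0.00536; -0.02, edgeR adjusted p = 0.721, by library totals alone).

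**Figure D3:**
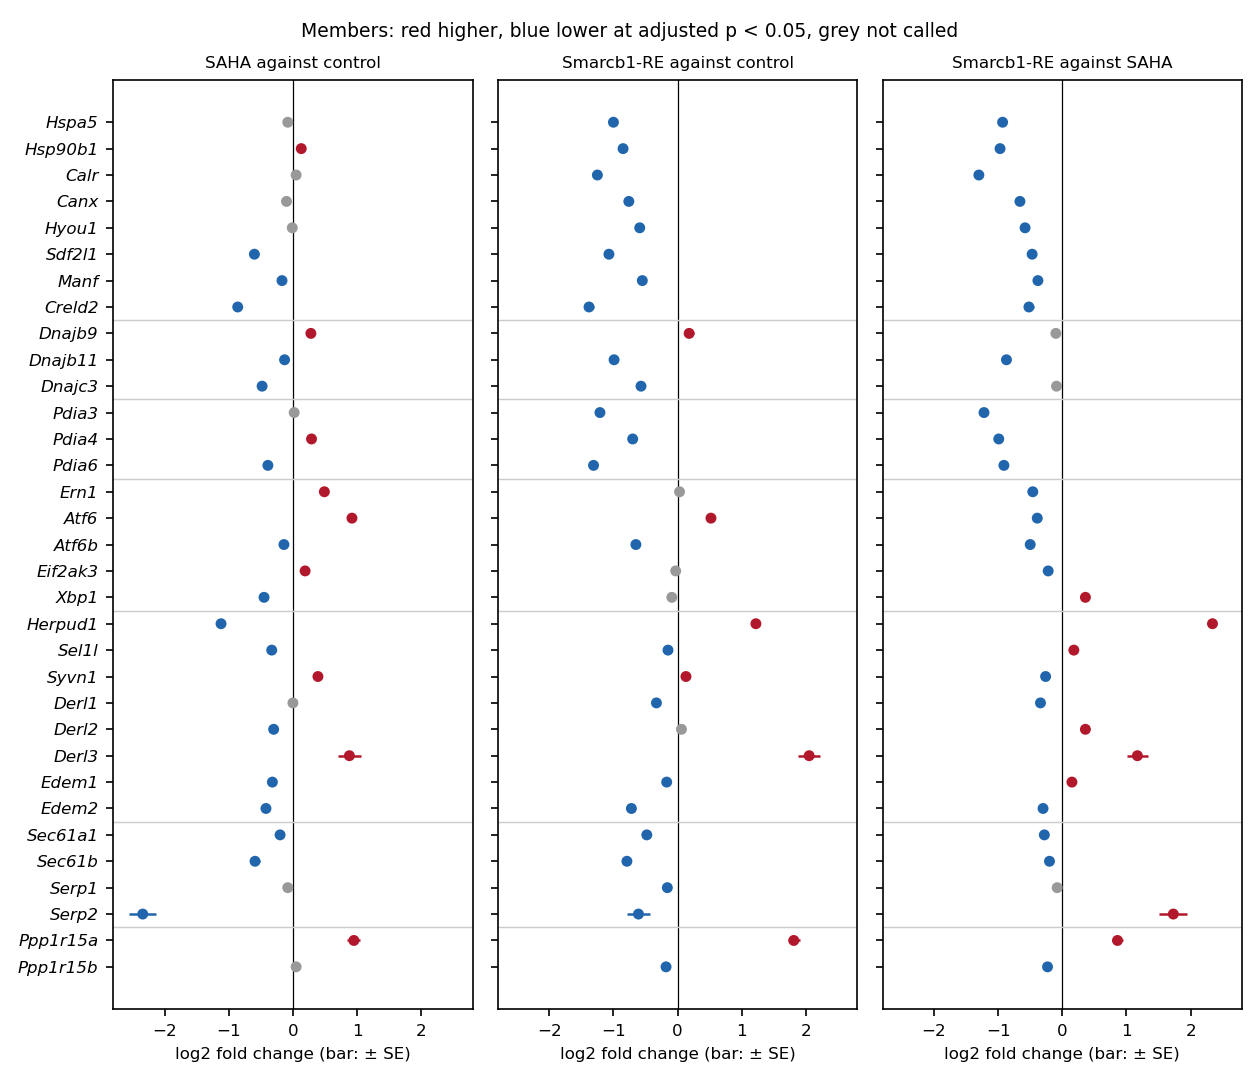
Log2 fold change of the 33 genes (rows, in role order) in the 3 comparisons, with bars for ± SE from the fit of 3 libraries a group, mostly narrower than the point. Red is higher and blue lower at an adjusted p under 0.05, and grey is not called. In the Smarcb1-RE panel 23 points are blue, among them all folding genes, and the red points farthest right are Derl3 (2.05), Ppp1r15a (1.81) and Herpud1 (1.22).

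ERSE was found in genes of either direction. Of the genes with a promoter window, ERSE stood in 7 of 18 that were lower in Smarcb1-RE than in control, in 2 of 5 that were higher (Derl3 and Syvn1) and in 0 of 4 that were not called. Of these 2, Syvn1 lost its call in 11 of 16 alternatives, and Derl3 rested on 44, 52 and 32 control counts. In SAHA it stood in 3 of 14 that were lower, 3 of 8 that were higher and 3 of 5 that were not called. With bases before the gene start counted as negative, the last base of the ERSE-II of Herpud1 was at -42 and that of the ERSE of Hspa5 at -47. Both elements hold CCACG, with CCAAT in Hspa5 and its reverse complement ATTGG in Herpud1, at a different spacing. These 2 genes moved in opposite directions in Smarcb1-RE, Herpud1 to 2.33 and Hspa5 to 0.498 times control.

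Of 91 other genes of the pathway, 88 were tested. In Smarcb1-RE 25 were higher and 46 lower than in control (28.4% and 52.3%), beside 39.2% and 38.6% of all genes tested. Among genes of at least 20 CPM the shares were 29.1% and 54.5%. In SAHA 24 were higher and 40 lower (27.3% and 45.5%), beside 32.6% and 34.3% of all genes tested. There the shares among genes of at least 20 CPM were 29.3% and 46.2%. Both splits were thus near those of genes of at least 20 CPM. By library totals alone the Smarcb1-RE split was 36 higher and 42 lower (46.2% of the calls higher, against 35.2%). The group for ER entry, signal peptide removal and N-glycosylation was lower in Smarcb1-RE for 22 of 25 genes (21 by library totals alone), with a median log2 fold change of -0.55, and 1 was higher, Sec11c of the signal peptidase (0.22), named after its value was seen. Among them, Ssr2, of the translocon-associated complex at the channel, fell by 1.31, and the oligosaccharyltransferase subunits Rpn1 and Dad1 fell by 1.19 and 1.05. In SAHA 11 of these 25 were lower and 4 higher, with Ssr2 at -0.44, Rpn1 at -0.10 and Dad1 at 0.40. The other folding genes split 9 higher and 12 lower of 25 in Smarcb1-RE (11 each by library totals alone). The prolyl isomerase gene Fkbp14 rose most, from 7, 11 and 6 counts in control to 23, 17 and 13 counts in SAHA and 325, 276 and 307 counts in Smarcb1-RE (log2 fold changes 1.18 and 5.26). Other degradation genes split 5 higher and 9 lower of 24 in Smarcb1-RE, a direction that flipped to 13 higher and 7 lower by library totals alone.

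The other signalling genes were the only one of these groups with more genes higher than lower in Smarcb1-RE under both scalings, 10 higher and 3 lower of 14 tested with each, against 3 higher and 7 lower in SAHA. Trib3, a pseudokinase induced through Atf4, was at 15.5, 14.5 and 15.7 CPM in control, 3.12, 3.45 and 3.79 CPM in SAHA and 71.5, 77.8 and 73.6 CPM in Smarcb1-RE, and Chac1, which degrades glutathione, had log2 fold changes of -1.87 and 1.76. Atf4 (-0.57 in SAHA and 0.25 in Smarcb1-RE) and Ddit3 (-1.04 and 2.05), named after their values were seen, had the same pair of directions by the test. Of the Creb3 family of membrane-bound factors, Creb3l2 was higher in both (0.82 and 2.11) and Creb3l1 lower in Smarcb1-RE (-1.63, on 18 to 49 control counts).

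**Figure D4:**
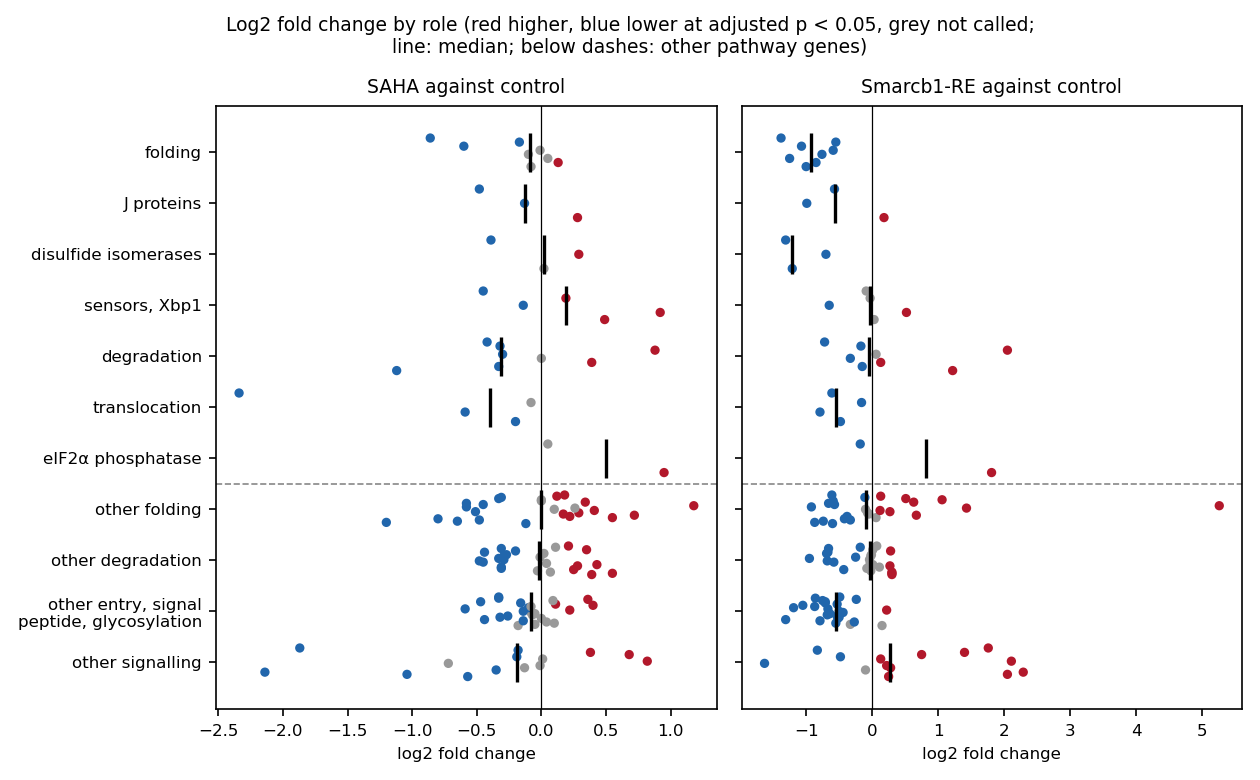
Log2 fold change against control of the 33 genes by role (above the dashed line) and of the 88 other pathway genes tested (below it), for SAHA (left) and Smarcb1-RE (right), each on its own scale. Each point is a gene, red higher, blue lower and grey not called at an adjusted p under 0.05, and the black line is the median, which in Smarcb1-RE is -0.93 for folding, -1.21 for disulfide isomerases and -0.55 for the other entry and glycosylation genes.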

How the data were processed

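RNA of T15 cells was sequenced as single-end reads on a NextSeq from a directional kit. The values are estimated counts per gene, as the authors deposited them, of which 52.4% of values above 0 were not whole. The submitters' processing notes name FastQC 0.11.8, MultiQC 1.7, Salmon 0.14.1, DESeq2 1.22.2 and GRCm38, with no order. The annotation release is not given in the sources used here, and 35099 of 35288 gene IDs were found in GENCODE M21, from which gene positions and merged exon lengths were taken. Counts were rounded to whole numbers, filtered (filterByExpr, minimum count 10) and scaled by TMM. All 9 libraries were fitted at once with 3 groups by edgeR 4.0.16 (glmQLFit, glmQLFTest; R 4.3.3), with Benjamini-Hochberg adjustment over 13697 genes and a threshold of 0.05. A standard error is the log2 fold change divided by the root of F. The code was tested on simulated data.

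The 33 genes, the other gene lists and the alternatives were chosen with earlier results of these data known. All 33 were named, with values in every library for Hspa5, Hsp90b1, Xbp1, Ern1, Atf6, Eif2ak3 and any called with an absolute log2 fold change of at least 0.58, and of the other pathway genes those with the 2 largest called changes in each direction and comparison. Motifs were searched by letters in RefSeq windows, which were not used for Atf6, Derl1, Ppp1r15b, Manf, Hyou1 and Sec61a1. Alternatives were DESeq2 1.42.0, other scalings and filters, separate fits, a threshold of 0.01, a minimum fold change, a replicate block and leaving out each library. Groups of 3 libraries were too small for a test of outliers.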

Additional observations from a re-analysis of the deposited data

How the results depend on the processing

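Under each of the 16 alternatives tried for a gene, most calls were the same. These 16 did not include the threshold of 0.01 or the minimum fold change, which were applied only to the counts of genes called. Asking for an absolute log2 fold change of 0.58 or more moved all 6 counts, to 3 higher and 5 lower in SAHA against control, 3 higher and 15 lower in Smarcb1-RE against control, and 4 higher and 8 lower in Smarcb1-RE against SAHA. Scaling by library totals alone reversed 2 called values in Smarcb1-RE against control, Eif2ak3 to 0.13 (edgeR adjusted p = 0.0192) and Sel1l to 0.01 (edgeR adjusted p = 0.862), each called in 1 of the 2 scalings. Values called under neither scaling also changed sign, Xbp1 to 0.07 in that comparison and Dnajb9, Dnajc3 and Serp1 to 0.06, 0.07 and 0.08 against SAHA. With a replicate block the counts were 9 higher and 16 lower, 6 higher and 23 lower, and 8 higher and 22 lower in the 3 comparisons, the same as without it. Libraries of the same number did not deviate together (correlations of -0.0717 to 0.0366 over genes). This cannot show whether the cultures were run in matched sets, which the labels do not state. Of the calls in Smarcb1-RE against control, 19 of 23 lower and 4 of 6 higher held under all 16 of these alternatives. The others were Edem1, Ppp1r15b, Sel1l, Serp1, Dnajb9 and Syvn1. In SAHA 15 of 16 lower and 8 of 9 higher held, all but Dnajb11 and Hsp90b1. Against SAHA, 18 of 22 lower and 6 of 8 higher held, all but Eif2ak3, Ppp1r15b, Sec61b, Syvn1, Edem1 and Sel1l. Edem1 lost that call in 6 alternatives, 5 of which left out 1 library (SAHA replicate 1, 2 or 3, Smarcb1-RE replicate 1 or 2, with values of 0.13 to 0.15), Sel1l lost it without SAHA replicate 2 (0.15) and Sec61b without Smarcb1-RE replicate 3 (-0.17), while Dnajc3 (-0.13, without SAHA replicate 3) and Serp1 (-0.09 without control replicate 1, -0.11 without SAHA replicate 3) gained one. The few counts of Serp2 and Derl3 limit what their values can show.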
